A study of Mus musculus with 12 samples.

Results

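The genes described here carry iron through the cell, from uptake to the iron-sulfur cluster. They are 9 of the 24453 genes in the deposited gene table, and they were chosen by name: *Tfrc* and *Slc11a2* (uptake), *Fth1* and *Ftl1* (storage), *Slc40a1* (export), *Aco1* and *Ireb2* (regulation), *Iscu* and *Nfs1* (iron-sulfur cluster assembly). All 9 passed the filter on low counts, which left 14026 genes to test. RNA-seq was performed on 4 lines of mouse embryonic fibroblasts (MEFs) of strain C57BL6/J, in 12 libraries from 3 biological replicates of each. TM6 is the parental line, *Pnpt1* neo-flox/neo-flox and untreated, immortalized with SV-40 large T antigen and carrying mtDNA. The rho0 line was TM6 treated with ditercalinium dichloride dihydrochloride, a drug that depletes mtDNA, at 750 ng/mL for 3 weeks and then grown from a single cell, so it is 1 clone. PKO-1 and PKO-6 are clones 1 and 6 from single TM6 cells infected with adenoviral Cre, a recombinase that deletes a part of *Pnpt1*, the gene of polynucleotide phosphorylase (PNPase). Rho0 and PKO cells lack mtDNA by the study's account. All 4 lines derive from cells with the floxed alleles, which Cre recombined in the PKO clones. All 4 grew in medium with uridine at 50 µg/mL. The comparisons ask how the iron genes stood in cells without mtDNA, with PNPase (rho0) or without it (PKO), and whether the clones differed from each other. Since each derived line is a single clone, replicates vary as cultures of 1 clone do, and the effect of a treatment and the nature of a clone cannot be told apart.

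Cells take up iron mainly as transferrin bound to the transferrin receptor, move it out of the endosome through a divalent metal transporter, store it in ferritin and release it through ferroportin. In mitochondria, a desulfurase and a scaffold protein build iron-sulfur clusters, the cofactors of respiratory complexes, aconitases and many enzymes of DNA and RNA. Cytosolic aconitase, the product of *Aco1*, becomes iron regulatory protein 1 (IRP1) when it has no cluster, and *Ireb2* encodes IRP2. Both proteins bind iron responsive elements, short RNA hairpins with a CAGTGN loop and an unpaired C on the 5′ side of the stem. Bound to a 3′ untranslated region (UTR) they protect the mRNA from decay, and bound to a 5′ UTR they block its translation. RNA levels, the only quantity given here, therefore do not report ferritin or ferroportin protein.

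Of the 9 genes, 5 held such an element, and the letters are shown because they sort the genes into those that hold it at the 3′ end and those that hold it at the 5′ end. GENCODE M21 transcripts (GRCm38) that match the RefSeq transcripts of all 9 genes were searched on the transcript strand for a C, 5 bases, CAGTGN and 5 bases, with at least 4 of the 5 stem positions able to pair (G with T allowed). In the 30-base windows below, capitals mark the unpaired C and the loop.
Tfrc 3′ UTR, first, exon 19, chr16:32631219-32631248, plus strand: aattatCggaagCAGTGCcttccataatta
Tfrc 3′ UTR, next, exon 19, chr16:32631598-32631627, plus strand: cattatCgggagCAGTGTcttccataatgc
Tfrc 3′ UTR, next, exon 19, chr16:32631663-32631692, plus strand: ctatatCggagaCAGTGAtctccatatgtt
Tfrc 3′ UTR, last, exon 19, chr16:32631710-32631739, plus strand: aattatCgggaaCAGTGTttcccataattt
Slc11a2 3′ UTR, exon 16, chr15:100395152-100395181, minus strand: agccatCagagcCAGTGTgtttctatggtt
Fth1 5′ UTR, exon 1, chr19:9982732-9982761, plus strand: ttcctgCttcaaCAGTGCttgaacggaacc
Ftl1 5′ UTR, exon 1, chr7:45459778-45459807, minus strand: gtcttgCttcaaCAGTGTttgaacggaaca
Slc40a1 5′ UTR, exon 1, chr1:45925464-45925493, minus strand: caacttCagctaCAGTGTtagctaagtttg

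*Tfrc* held 4 matches, and the *Slc11a2* window paired at 4 of 5 positions while the others paired at all 5. The ferritin windows of *Fth1* and *Ftl1* share the same 5 searched stem bases on each side of the loop. They differ in the last loop base and in some bases outside the searched stem. *Slc11a2* has 2 RefSeq transcripts, and the match lies only in the one with 16 exons. No match was found in *Ireb2*, *Aco1*, *Iscu* or *Nfs1*. Over all 20496 genes searched the same way, coding regions included, 1.27% held a match with 5 pairs, 10.3% one with at least 4 pairs and 93.7% the letters CAGTG alone.

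Total counts per library were 47164860 to 67991378. *Pnpt1* itself averaged 3131 normalized counts (counts scaled to the mean library) in TM6, 5271 in rho0, 1240 in PKO-1 and 1944 in PKO-6, each with 3 libraries that did not overlap those of TM6, so the PKO labels went with lower RNA of the targeted gene. The count covers the whole gene, not the deleted exon alone. Of the fibroblast markers, *Vim*, *Fn1*, *Col1a1*, *Col1a2* and *S100a4* were high, with median levels of 402 to 1803 TPM (RSEM's unit, scaled for transcript length and library size), and *Twist1*, *Pdgfrb* and *Col3a1* had medians of 48.1, 14.97 and 13.3 TPM. The medians of *Pdgfra*, *Dcn* and *Lum* were only 1.75, 1.22 and 0.055 TPM, and that of *Thy1* was 0. The fibroblast markers also differed between lines: of 11 tested, 1 was called higher and 8 lower than in TM6 in rho0, while PKO-1 had 6 higher and 2 lower and PKO-6 had 2 higher and 6 lower, by the call defined further on. Their summed level was 540417 to 588601 normalized counts in TM6, 453756 to 507134 in rho0, 612411 to 662555 in PKO-1 and 357945 to 399456 in PKO-6. Summed epithelial markers were 90.9 to 119 normalized counts in PKO-6, mostly *Epcam*, and at most 17.3 elsewhere. Summed endothelial markers were 158 to 177 in PKO-6 and at most 86.8 elsewhere, and summed leukocyte markers, mostly *Cd68*, were 174 to 215 in PKO-6, 101 to 173 in rho0, 92.7 to 111 in PKO-1 and 86.0 to 123 in TM6. Summed erythroid markers were highest in rho0, at 44.3 to 64.9, and at most 38.5 elsewhere. *Adgre1*, *Krt5*, *Ttr*, *Hbb-bs* and *Hbb-bt* were at 0 in all 12 libraries. The part of these markers in the results below was not tested.

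Per transcript length, the ferritin genes were far above the other iron genes and *Slc40a1* far below them (TPM allow genes to be compared). In TM6, *Ftl1* stood at 2850 ± 80.6 TPM (SD, n = 3, as for all means below) and *Fth1* at 1657 ± 41.5 TPM. *Tfrc* followed at 101 ± 10.6 TPM and *Iscu* at 62.6 ± 2.41 TPM. *Aco1* at 35.9 ± 0.39 TPM and *Ireb2* at 32.7 ± 2.30 TPM came next, then *Nfs1* at 21.9 ± 0.15 TPM and *Slc11a2* at 21.0 ± 1.00 TPM, whose libraries overlapped. *Slc40a1* was last at 0.26 ± 0.015 TPM. The order shifted among the middle genes in the derived lines: *Ireb2* stood above *Aco1* in rho0 (28.9 against 22.8 TPM), PKO-1 (22.7 against 16.9 TPM) and PKO-6 (26.2 against 17.1 TPM), and so did *Nfs1* in both clones (25.7 TPM in PKO-1 and 30.02 TPM in PKO-6), above *Ireb2* as well, though its PKO-6 libraries overlapped those of *Ireb2*. *Iscu* stood near *Tfrc* in rho0 (49.4 against 51.3 TPM) and PKO-1 (79.8 against 83.4 TPM), where the libraries overlapped. In PKO-6 it had the higher mean (70.6 against 62.1 TPM) and was above *Tfrc* in each of the 3 libraries, though the ranges of the genes overlapped.

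**Figure D1:**
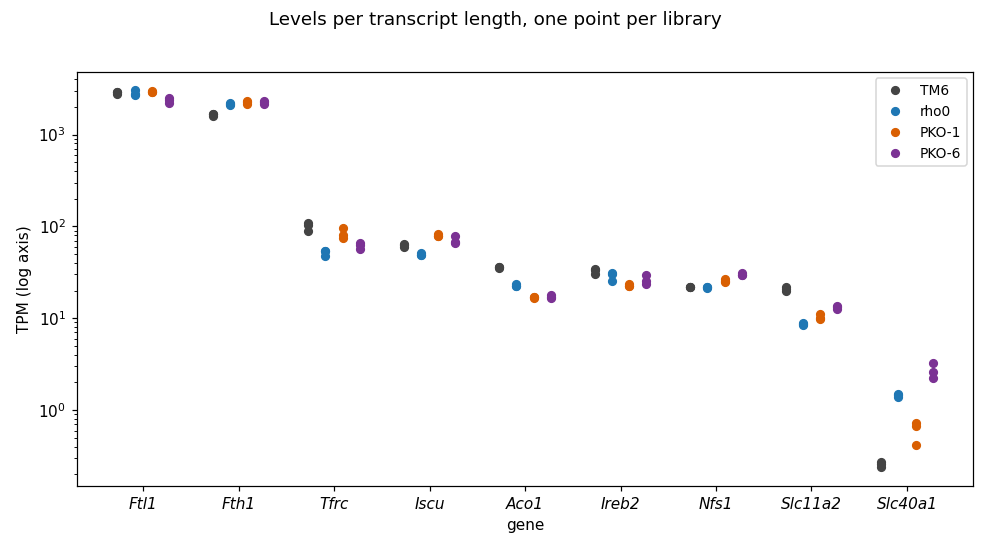
TPM of the 9 genes on a log axis, 1 point per library, colored by line and ordered by the TM6 mean. The ferritin genes lie at 1609 TPM or more in every library, and *Slc40a1* lies at 3.25 TPM or less in every library and is lowest in TM6 (0.24 to 0.27 TPM).

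Genes were called when edgeR's quasi-likelihood test, with Benjamini-Hochberg adjustment over all tested genes, gave an adjusted p below 0.01 and the log2 fold change exceeded 0.5 in size. Against TM6, 4 of the 9 genes were called in rho0 (1 higher, 3 lower), where 42.1% of all tested genes were called. In PKO-1, 3 were called (1 higher, 2 lower), against 34.3% of all genes. In PKO-6, 6 were called (3 higher, 3 lower), against 41.3% of all genes, but 2 of the calls lay just past the fold limit, and glmTreat, which tests against that limit, called 3 of the 6. These shares lie near those of all genes in rho0 and PKO-1, so the number of calls does not set the iron genes apart. The median log2 fold change of the 9 genes was -0.16 in rho0, 0.11 in PKO-1 and -0.21 in PKO-6, beside 0.018, 0.00086 and 0.014 over all tested genes. Called values of both signs stood in each line. *Slc40a1* was called higher, and *Slc11a2* and *Aco1* lower, in each of the comparisons with TM6, which share the same TM6 libraries. Of all tested genes, 8.28% were called higher and 9.25% lower in each of them. The libraries did not overlap those of TM6 for 6 of the 9 genes in rho0, 8 in PKO-1 and 8 in PKO-6, beside 72.8%, 71.8% and 71.9% of all genes. A lower level of an RNA in a culture can come from less RNA per cell or from fewer cells that express it, and these cannot be told apart.

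**Figure D2:**
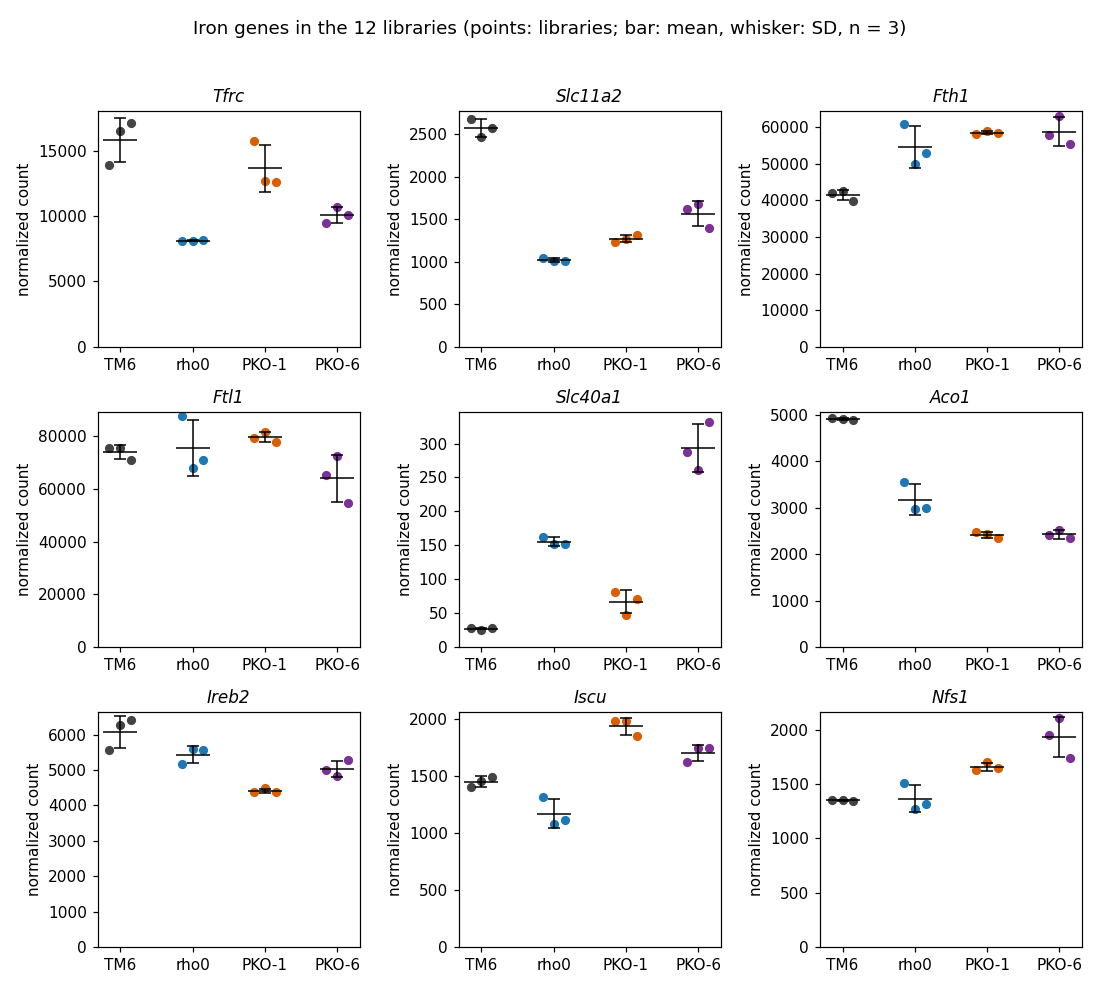
Normalized counts of each gene in the 12 libraries, with axes from 0, points for libraries, and a bar and whisker for the mean and SD of 3 libraries. *Slc11a2* and *Aco1* are highest and *Slc40a1* lowest in TM6 in every library, while the *Ftl1* libraries of TM6 and rho0 overlap.

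*Tfrc* encodes transferrin receptor 1, the main entry of iron into most cells, and in the study's own assay of mtDNA its locus served as the nuclear DNA control. TM6 held 13873, 16458 and 17096 normalized counts of it (mean 15809 ± 1707). The rho0 libraries held 8116, 8061 and 8197 (8125 ± 68.6), all below those of TM6. *Tfrc* fell in rho0 by 0.96 on the log2 scale (SE 0.093, adjusted p = 5.9e-07), a 1.95-fold difference. In PKO-1 the libraries held 15711, 12669 and 12569 (13650 ± 1786) and overlapped those of TM6. Their log2 fold change of -0.21 was not called (95% interval -0.39 to -0.03, adjusted p = 0.059). In PKO-6 the libraries held 9442, 10723 and 10048 (10071 ± 641), and *Tfrc* fell by 0.65 on the log2 scale (SE 0.093, adjusted p = 2.4e-05). That call was lost with glmTreat. It was also lost when both clones were pooled as 1 group, where the log2 fold change was -0.41 with an adjusted p of 0.028. *Tfrc* RNA thus ran from TM6 through PKO-1 and PKO-6 down to rho0, and no step between neighbours in that order was called.

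*Slc11a2* encodes divalent metal transporter 1 (DMT1), which carries iron(II) out of endosomes, and it was lowest in rho0. TM6 held 2681, 2467 and 2577 normalized counts (2575 ± 107). The rho0 libraries held 1041, 1011 and 1004 (1019 ± 19.9), PKO-1 held 1230, 1272 and 1318 (1273 ± 44.0), and PKO-6 held 1616, 1684 and 1398 (1566 ± 149). No derived library reached a TM6 library. *Slc11a2* fell by 1.34 on the log2 scale in rho0 (SE 0.067, adjusted p = 7.3e-10), by 1.02 in PKO-1 (SE 0.066, adjusted p = 1.4e-08) and by 0.72 in PKO-6 (SE 0.065, adjusted p = 2.9e-07). The genes of its chromosome, 15, also lay low in rho0, with a median log2 fold change of -0.38. With that median removed the fall in rho0 was -0.96, still called.

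The RefSeq transcripts of *Slc11a2* changed in their shares of the gene's counts. RSEM divides the gene's reads between an isoform of 16 exons (4373 bases, chr15:100392658-100423055, minus strand), which holds the element shown above, and an isoform of 17 exons (3023 bases, chr15:100387900-100423055) with another 3′ end. The isoform with the element took 73.5%, 72.7% and 73.9% of the gene's expected counts in TM6. Its share was 50.8%, 60.9% and 63.4% in rho0, 63.2%, 63.2% and 65.0% in PKO-1, and 59.1%, 55.8% and 59.6% in PKO-6. All 9 derived libraries lay below all 3 TM6 libraries, and the first rho0 library stood apart from the other two. Counts favour the longer isoform, the one with the element. In TPM the isoform without the element was the higher one in every PKO-6 library (6.64 against 6.5, 7.26 against 6.22 and 6.25 against 6.23). The same held in the first rho0 library (4.95 against 3.47), and in all other libraries the isoform with the element was higher. In normalized expected counts the isoform with the element averaged 1889 ± 90.3 in TM6, 594 ± 56.7 in rho0, 812 ± 40.3 in PKO-1 and 909 ± 66.5 in PKO-6. Without it, the other isoform averaged 686 ± 21.2 in TM6, 425 ± 76.9 in rho0, 461 ± 7.25 in PKO-1 and 657 ± 89.5 in PKO-6. In PKO-6 the former stood at 0.48 and the latter at 0.96 of its TM6 mean, and the PKO-6 libraries of the isoform without the element (566 to 744) spanned those of TM6 (672 to 710). In rho0 these ratios were 0.31 and 0.62, and in PKO-1 they were 0.43 and 0.67. The isoforms share most of their exons and RSEM splits the shared reads, so these values are given without a test.

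**Figure D3:**
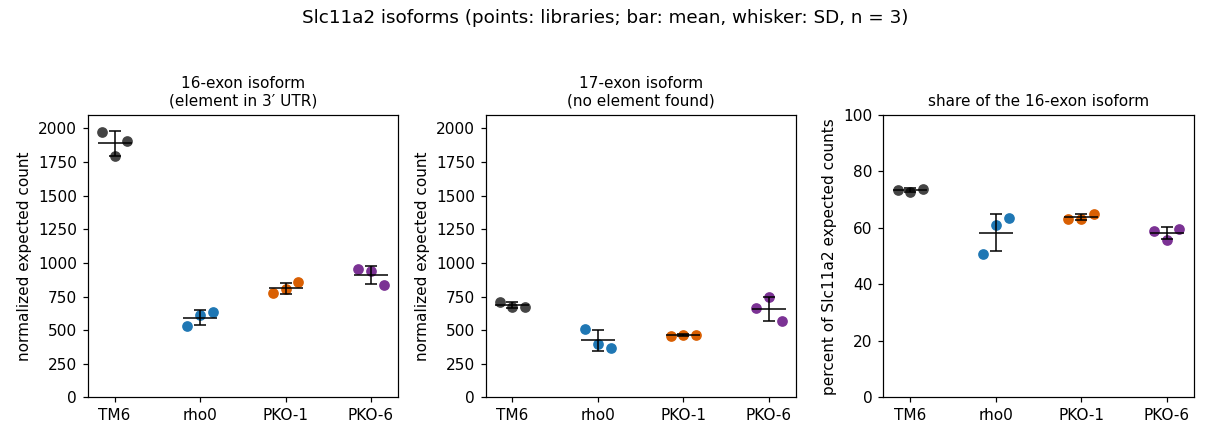
Normalized expected counts of the *Slc11a2* isoform with 16 exons and the isoform with 17 exons, and the share of the former in percent, by library, with mean and SD of 3 libraries. The share is above 72% in each TM6 library and at most 65% in each derived library.

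Ferritin RNA was the most abundant of the 9 genes, and its differences from TM6 lay at or below the fold limit. *Fth1* encodes the heavy chain, which oxidizes iron as it enters the ferritin shell. TM6 held 42024, 42494 and 39835 normalized counts (41451 ± 1419), and rho0 held 60953, 49919 and 52961 (54611 ± 5699). PKO-1 held 58252, 58938 and 58477 (58555 ± 350), and PKO-6 held 57967, 63143 and 55385 (58832 ± 3951). Every derived library lay above every TM6 library. The log2 fold changes were 0.40 in rho0 (SE 0.076, adjusted p = 0.00033), 0.50 in PKO-1 (SE 0.076, adjusted p = 5.5e-05) and 0.51 in PKO-6 (SE 0.076, adjusted p = 3.9e-05). Only the PKO-6 value, 0.5052, passed the limit of 0.5, and the call was lost under 14 of 21 alternatives. One of these took TM6 and PKO-6 alone with the replicate number as a block, and gave 0.47. No difference between derived lines was called for *Fth1*: the log2 differences were -0.01 between PKO-1 and PKO-6 (95% interval -0.15 to 0.14), 0.10 between PKO-1 and rho0 (-0.05 to 0.25) and 0.11 between PKO-6 and rho0 (-0.04 to 0.26).

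*Ftl1* encodes the light chain, which helps the iron core to form. TM6 held 75477, 75514 and 70824 normalized counts (73938 ± 2697), rho0 87652, 67799 and 70925 (75458 ± 10675), PKO-1 79303, 81779 and 77919 (79667 ± 1956) and PKO-6 65152, 72340 and 54715 (64069 ± 8862). The libraries of rho0 and PKO-6 overlapped those of TM6, and those of PKO-1 lay above them. No difference from TM6 was called: the log2 fold change was 0.03 in rho0 (95% interval -0.18 to 0.23), 0.11 in PKO-1 (-0.10 to 0.31) and -0.21 in PKO-6 (-0.41 to -0.0011). As a result the ratio of *Fth1* to *Ftl1* in TPM was 0.58 ± 0.0036 in TM6, 0.75 ± 0.028 in rho0, 0.76 ± 0.016 in PKO-1 and 0.96 ± 0.079 in PKO-6. Derived libraries (0.72 to 1.05) did not overlap those of TM6 (0.577 to 0.584). Both ferritin genes are known to have near-identical processed copies in the mouse genome, so reads shared with a copy leave their levels less certain than those of the other genes. The ratio of *Fth1* to *Tfrc*, storage to uptake, was 16.5 ± 2.10 in TM6, 41.9 ± 3.95 in rho0, 27.1 ± 3.14 in PKO-1 and 36.4 ± 1.65 in PKO-6, again without overlap between TM6 (at most 18.8) and the derived lines (at least 23.5).

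*Slc40a1* encodes ferroportin, the only known iron exporter of mammalian cells, and it showed the largest fold changes of the 9 genes from the lowest base. TM6 held 27.7, 25.8 and 27.9 normalized counts (27.1 ± 1.16), and rho0 held 163, 152 and 152 (155 ± 6.29). PKO-1 held 80.9, 47.9 and 71.4 (66.7 ± 17), and PKO-6 held 288, 261 and 332 (294 ± 35.5). None of the 4 lines overlapped another. *Slc40a1* rose 5.71-fold in rho0 (log2 fold change 2.51, SE 0.18, adjusted p = 3.2e-08), 2.45-fold in PKO-1 (1.29, SE 0.20, adjusted p = 5.7e-05) and 10.8-fold in PKO-6 (3.43, SE 0.18, adjusted p = 8.6e-10). Even in PKO-6 the level was 2.69 ± 0.51 TPM, against 62.1 ± 4.86 TPM for *Tfrc* in the same line. With both clones pooled, *Slc40a1* stood 2.73 above TM6 on the log2 scale (adjusted p = 0.0044).

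**Figure D4:**
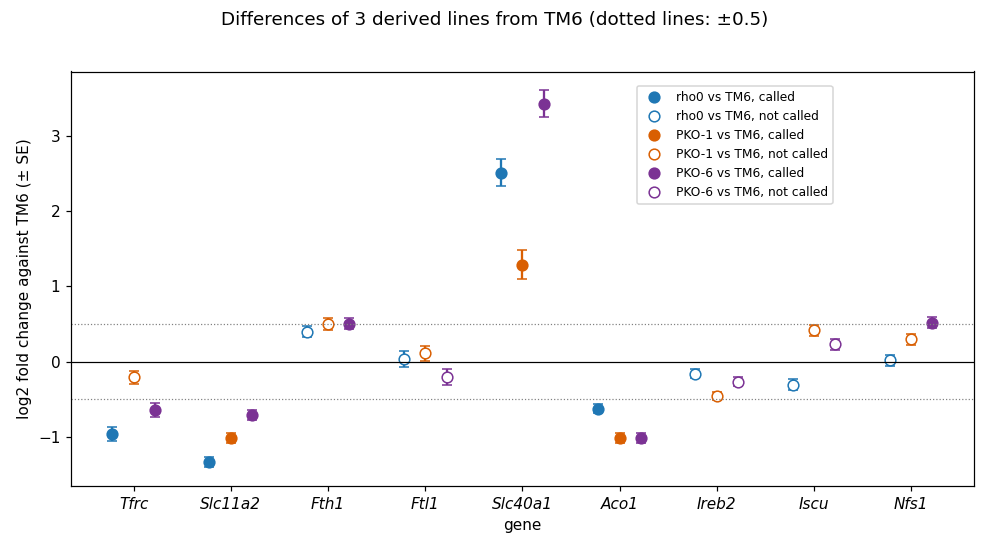
Log2 fold changes against TM6 (whiskers, SE) in rho0, PKO-1 and PKO-6, all from 1 fit and sharing the TM6 libraries. Filled points were called and open points were not, and dotted lines mark the limit of 0.5 in size. *Slc40a1* lies highest in all 3 lines, *Slc11a2* and *Aco1* lie below -0.5 in all 3, and *Iscu* lies below 0 in rho0 and above 0 in both PKO clones.

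Of the genes that sense iron, *Aco1* fell in all derived lines. TM6 held 4931, 4901 and 4881 normalized counts (4904 ± 25.2), rho0 3550, 2976 and 2989 (3172 ± 328), PKO-1 2480, 2430 and 2352 (2421 ± 64.5) and PKO-6 2412, 2526 and 2342 (2427 ± 92.5). The rho0 libraries thus lay between those of TM6 and those of the PKO clones, without overlap. *Aco1* fell by 0.63 on the log2 scale in rho0 (SE 0.063, adjusted p = 8.8e-07), by 1.02 in PKO-1 (SE 0.064, adjusted p = 9.7e-09) and by 1.02 in PKO-6 (SE 0.064, adjusted p = 6.1e-09). The log2 difference between the clones had a 95% interval of -0.13 to 0.12. Against rho0, they stood lower by -0.39 each (adjusted p = 0.00013 in PKO-1 and 0.00019 in PKO-6), which did not reach the limit of 0.5.

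*Ireb2*, the gene of IRP2, moved less. TM6 held 5566, 6256 and 6407 normalized counts (6076 ± 448), rho0 5162, 5590 and 5550 (5434 ± 236), PKO-1 4387, 4484 and 4385 (4419 ± 56.6) and PKO-6 4986, 4844 and 5274 (5035 ± 219). The rho0 libraries overlapped those of TM6, and those of both clones lay below. No difference from TM6 was called: the log2 fold change was -0.16 in rho0 (adjusted p = 0.025), -0.46 in PKO-1 (adjusted p = 1.2e-05) and -0.27 in PKO-6 (adjusted p = 0.00097). The tested genes of chromosome 9, where *Ireb2* lies, had a median log2 fold change of -0.39 in PKO-1, and relative to it *Ireb2* stood at -0.07. With *Aco1* lower and *Ireb2* not called, the ratio of *Ireb2* to *Aco1* in TPM was 0.91 ± 0.071 in TM6, 1.27 ± 0.18 in rho0, 1.34 ± 0.038 in PKO-1 and 1.53 ± 0.12 in PKO-6.

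*Iscu* encodes the scaffold on which the iron-sulfur cluster is built, and it differed between rho0 and the PKO clones, in calls that were lost with the medians of its chromosome removed. TM6 held 1402, 1457 and 1495 normalized counts (1451 ± 46.4), rho0 1315, 1081 and 1113 (1170 ± 127), PKO-1 1977, 1981 and 1848 (1935 ± 75.6) and PKO-6 1621, 1742 and 1741 (1701 ± 70.0). All rho0 libraries lay below and all PKO libraries above those of TM6. None of these differences from TM6 was called: the log2 fold change was -0.31 in rho0 (SE 0.071, adjusted p = 0.0015), 0.42 in PKO-1 (SE 0.070, adjusted p = 0.00014) and 0.23 in PKO-6 (SE 0.070, adjusted p = 0.0098). Compared directly, *Iscu* was higher in both clones than in rho0, by 0.72 in PKO-1 (SE 0.071, adjusted p = 1.0e-06) and by 0.54 in PKO-6 (SE 0.071, adjusted p = 2.7e-05), and both were called. The genes of chromosome 5, which holds *Iscu*, had median log2 differences of 0.32 and 0.26 in these comparisons. With the medians removed, the differences were 0.40 and 0.28 and neither was called. In rho0 against TM6 the median of chromosome 5 was -0.21, and relative to it *Iscu* stood at -0.095.

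*Nfs1* encodes the cysteine desulfurase that supplies the sulfur. TM6 held 1350, 1352 and 1347 normalized counts (1350 ± 2.34), rho0 1509, 1274 and 1314 (1366 ± 126), PKO-1 1626, 1700 and 1645 (1657 ± 38.2) and PKO-6 1948, 2108 and 1738 (1932 ± 185). The rho0 libraries spanned those of TM6, and the libraries of both clones lay above. The log2 fold change was 0.02 in rho0 (95% interval -0.13 to 0.17), 0.30 in PKO-1 (SE 0.075, adjusted p = 0.0032) and 0.52 in PKO-6 (SE 0.074, adjusted p = 2.6e-05). The PKO-6 value alone was called, and the call was lost under 11 of 21 alternatives. With TM6 and PKO-6 alone and the replicate number as a block the value was 0.48. *Nfs1* overlaps *Romo1* on the other strand of chromosome 2. The libraries were strand-specific, but the strand setting of the counting is not given in the sources used here, so reads of the overlap could be shared.

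Between the derived lines, 1 of the 9 genes was called between PKO-1 and PKO-6, where 29.1% of all tested genes were called. That gene was *Slc40a1*, 4.41-fold lower in PKO-1 (log2 difference -2.14, SE 0.16, adjusted p = 7.8e-08). Between PKO-1 and rho0, 3 were called (2 higher in PKO-1, 1 lower), against 32.7% of all genes: *Tfrc* was higher in PKO-1 by 0.75 (SE 0.093, adjusted p = 1.0e-05), *Iscu* was higher as given above, and *Slc40a1* was lower by -1.22 (SE 0.17, adjusted p = 2.4e-05). The *Tfrc* call was lost with glmTreat. Between PKO-6 and rho0, 3 were called, all higher in PKO-6, against 21.5% of all genes in either direction, 13.3% higher and 8.16% lower. They were *Slc40a1* at 0.92 (SE 0.15, adjusted p = 0.00017), *Slc11a2* at 0.62 (SE 0.067, adjusted p = 4.5e-06) and *Iscu*. With glmTreat 0 of the 9 genes were called in this comparison (2 at an unadjusted p below 0.05), while DESeq2's Wald test called 3, and without 1 library in turn 2 to 4 were called: *Iscu* was lost without rho0 replicate 2 or 3. The *Slc11a2* difference was 0.30 with the median of chromosome 15 removed and then not called. *Nfs1* stood just outside the limit in this comparison, at 0.4988 (adjusted p = 8.1e-05). The libraries did not overlap for 7 of the 9 genes between the clones, 7 between PKO-1 and rho0 and 6 between PKO-6 and rho0, beside 66.5%, 69.5% and 56.7% of all genes.

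The wider iron pathway was described with lists of 109 further genes in the table, 102 of them tested. Against TM6, 25 were called higher and 14 lower in rho0, 18 and 18 in PKO-1, and 23 and 16 in PKO-6. Over all tested genes, 20.7% were called higher and 21.4% lower in rho0, 16.4% and 17.9% in PKO-1, and 21.9% and 19.4% in PKO-6. The genes named below are those called in the same direction in each of the comparisons with TM6, the largest by mean size, at most 3 a list. Of 18 tested genes of mitochondrial iron-sulfur assembly, 9 were called higher and 2 lower in rho0, 6 and 3 in PKO-1, and 7 and 3 in PKO-6. Its median log2 fold change was 0.54 in rho0, 0.29 in PKO-1 and 0.27 in PKO-6, beside the medians of all tested genes given above.

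**Figure D5:**
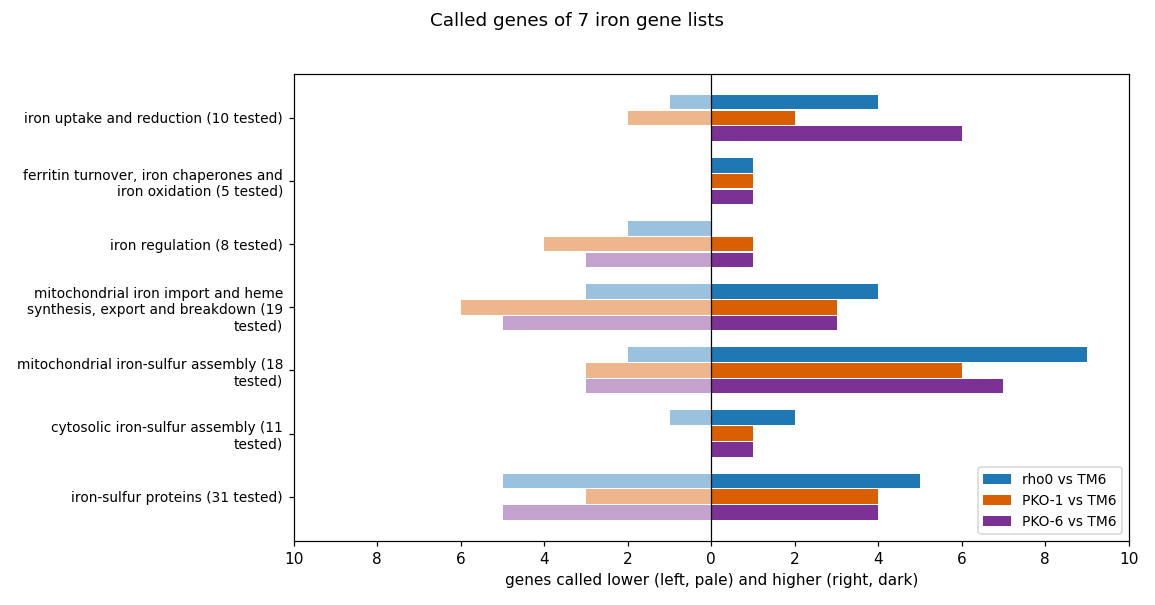
Number of genes called higher (right, dark bars) and lower (left, pale bars) in each of 7 lists of iron genes, for rho0, PKO-1 and PKO-6 against TM6, with the number tested beside each list. Mitochondrial iron-sulfur assembly has the longest bars to the right, and cytosolic assembly has at most 2 genes called higher in any line. The bars are counts from lists of unequal size. In PKO-6, 7 of 18 genes of mitochondrial assembly were called higher, beside 6 of 10 of iron uptake and reduction. Some of these 6 lay near the floor in TM6 and passed the filter on low counts through PKO-6, where they are high. Their calls there are therefore no support.

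In that list, *Nubpl*, which delivers iron-sulfur clusters to respiratory complex I, rose by 1.60, 1.13 and 1.60 on the log2 scale in rho0, PKO-1 and PKO-6, from 208 normalized counts in TM6 to 632 in rho0, 454 in PKO-1 and 630 in PKO-6. *Hspa9*, the mitochondrial chaperone that takes the new cluster from ISCU, averaged 46025 normalized counts in TM6, 139728 in rho0, 74935 in PKO-1 and 113298 in PKO-6. It rose by 1.60, 0.70 and 1.30 on the log2 scale (adjusted p = 2.3e-10, 1.0e-06 and 1.4e-09). *Hscb*, its co-chaperone in cluster transfer, rose by 1.16, 0.66 and 1.44, from 184 normalized counts in TM6 to 410 in rho0, 290 in PKO-1 and 498 in PKO-6. Both chaperones of cluster transfer were thus called higher in all 3 derived lines, whereas neither *Iscu* nor *Nfs1* was called higher in rho0.

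In the list of iron uptake and reduction (10 tested), 4 genes were called higher and 1 lower in rho0, 2 and 2 in PKO-1, and 6 and 0 in PKO-6. Its medians were 0.68, 0.29 and 0.85 on the log2 scale, with the lines in the same order. Some tested genes of this list lay near the floor, with a TM6 mean as low as 0.89 normalized counts. That limits its calls and medians. The gene with that mean averaged 76.4 normalized counts in PKO-6 and passed the filter on low counts through its PKO-6 libraries. Its higher level there is therefore no support. *Slc39a8*, a zinc transporter that also carries iron, held 42.0 to 53.6 normalized counts in TM6, 189 to 245 in rho0, 209 to 285 in PKO-1 and 461 to 551 in PKO-6. It rose by 2.25, 2.35 and 3.40 on the log2 scale (adjusted p = 2.7e-08, 2.3e-08 and 2.8e-10). In the list of ferritin turnover, chaperones and iron oxidation (5 tested), 1 gene was called higher in each line and none lower, with medians of -0.02, 0.30 and -0.15. That gene was *Cp*, the gene of ceruloplasmin, a ferroxidase that works with ferroportin, with means of 96.2 normalized counts in TM6, 517 in rho0, 242 in PKO-1 and 746 in PKO-6. Its lines stood in the same order as those of *Slc40a1*, an order also seen in other listed genes such as *Hscb* and *Dpyd*.

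Of 8 tested genes of iron regulation, 0 were called higher and 2 lower in rho0, 1 and 4 in PKO-1, and 1 and 3 in PKO-6, with medians of -0.40, -0.48 and 0.16. Some of these genes also lay near the floor, with a line mean as low as 1.02 normalized counts, which limits the calls and medians. *Keap1*, which holds the antioxidant regulator NRF2 in check, fell by 0.55, 0.70 and 0.69 (4513 normalized counts in TM6, 3093 in rho0, 2775 in PKO-1 and 2795 in PKO-6). In the list of mitochondrial iron import and heme (19 tested), 4 were called higher and 3 lower in rho0, 3 and 6 in PKO-1, and 3 and 5 in PKO-6, with medians of 0.0044, 0.03 and -0.12. *Cpox*, an enzyme of heme synthesis, rose by 1.74, 0.74 and 1.48, from 3234 normalized counts in TM6 to 10790 in rho0, 5416 in PKO-1 and 9003 in PKO-6. *Abcb10*, a transporter of the inner mitochondrial membrane, fell by 0.99, 0.84 and 1.43, and *Abcb6*, a porphyrin transporter, fell by 0.92, 1.13 and 1.06.

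In the cytosolic assembly list, of 11 tested genes, 2 were called higher and 1 lower in rho0, 1 and 0 in PKO-1, and 1 and 0 in PKO-6, and none was called in the same direction in every line. The medians were -0.0056, -0.02 and 0.03. Among 31 genes of iron-sulfur proteins, 5 were called higher and 5 lower in rho0, 4 and 3 in PKO-1, and 4 and 5 in PKO-6, with medians of -0.0070, 0.04 and -0.07. *Rsad2*, an antiviral radical enzyme induced by interferon, held 18.2 to 20.9 normalized counts in TM6 and at most 1.0 in any derived library, and it was called lower in all derived lines. It passed the filter on low counts through the TM6 libraries alone, so the direction of these calls was set by the filter. *Dpyd*, which breaks down uracil and thymine, rose by 2.76 in rho0, 1.74 in PKO-1 and 3.69 in PKO-6, from 14.6 normalized counts in TM6 to 100, 49.4 and 190. *Xdh*, xanthine dehydrogenase of purine breakdown, rose by 1.57, 3.39 and 3.11, from 229 to 680, 2397 and 1977.

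Genes whose log2 CPM over the 12 libraries was most like that of each iron gene had Pearson's r of 0.960 to 0.994. Since the 12 libraries are 4 lines of 3 cultures, such values mostly compare line means, and they are a description only. The genes nearest to *Tfrc* were *Impad1* (0.980), *Setd8* (0.979) and *Pdia3* (0.978). Nearest to *Slc11a2* were *Ephb4* (0.988), *Ptk2b* (0.988) and *Slc36a1* (0.987). *Fth1* was most like *Man2b2* (0.984), *Rsph3b* (0.981) and *Cog7* (0.978), and *Ftl1* most like *Pelp1* (0.971), *Trim28* (0.971) and *Aldh16a1* (0.965). For *Slc40a1* they were *Ccdc28a* (0.989), *Plekhh1* (0.989) and *Zfp180* (0.989). *Aco1* was followed by *Gpx7* (0.994), *Fads1* (0.994) and *Tom1* (0.993), and *Ireb2* by *Hey2* (0.975), *Ikzf2* (0.969) and *Chml* (0.960). *Iscu* was followed by *Tmem43* (0.987), *Suds3* (0.986) and *Klhl5* (0.985), and *Nfs1* by *Coq4* (0.982), *Coa5* (0.982) and *Itga3* (0.979). No member of the iron lists was among these genes, but the lists hold only 102 of the 14026 tested genes, so this absence says little.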

How the data were processed

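RNA was taken from 3 cultures of each line. The authors isolated it with TriZol or RNeasy (which sample had which is not given in the sources used here), depleted rRNA, made strand-specific libraries in technical duplicate and merged the reads. They aligned paired reads with bowtie2 and estimated counts with RSEM 1.2.25 against RefSeq transcripts of mm10 (GRCm38). The deposited gene table holds these expected counts, not normalized (12.5% with decimals), and the authors' file of each library holds expected counts and TPM per transcript. Counts were rounded to whole numbers, and gene TPM are sums over transcripts.

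Tests used R 4.3.3 and edgeR 4.0.16: genes were filtered with filterByExpr (minimum count 10), then TMM scaling, a quasi-likelihood fit of 4 lines over 12 libraries, and Benjamini-Hochberg adjustment over 14026 genes. The SE is the size of the log2 fold change over the square root of F, and 95% intervals are normal ones from that SE. The script was tested on simulated data. Alternatives were DESeq2 1.42.0 (size factors, Wald test), no filter, a replicate block, only the compared lines (for PKO-6 against TM6 also with the block, since their 3 same-numbered pairs deviated together, correlation 0.209 to 0.250, with no pairing stated by the labels; added after seeing the data), glmTreat, chromosome medians removed, both clones pooled, and each library left out. With chromosome medians removed, only the fold changes were shifted, and the adjusted p of the unshifted contrast was kept. Intervals cover the spread between cultures and counting error, not that between clones. The members, the lists and their rule for named genes (called in the same direction in each comparison with TM6, at most 3 a list; 3 most alike genes per member) were chosen with earlier results of these data known. Values encoded by mtDNA were not analysed here. A gene of the lists is withheld and not reported here.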

Additional observations from a re-analysis of the deposited data

Results flagged for a closer look

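Of 27 direct differences between derived lines (9 genes in 3 comparisons), 7 were called (25.9%, beside 27.8% of the same differences over all tested genes), each tested as a contrast of the 4-line fit, which also tests whether the change against the shared TM6 libraries differed. *Slc40a1* accounted for 3 of them, at -2.14 for PKO-1 against PKO-6, -1.22 for PKO-1 against rho0 and 0.92 for PKO-6 against rho0 on the log2 scale. *Tfrc* differed by 0.75 between PKO-1 and rho0. *Slc11a2* differed by 0.62 between PKO-6 and rho0. *Iscu* differed from rho0 in both clones, by 0.72 in PKO-1 and 0.54 in PKO-6. Its log2 fold change against TM6 had opposite signs in rho0 and in the clones, but none was called. Both direct calls were lost with the medians of chromosome 5 removed, and the rho0 value against TM6 was then -0.095.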

How the results depend on the processing

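Each of 54 values (9 genes in 6 comparisons) was recomputed under each alternative, 1062 times in all: 1011 kept the call, 37 lost it, 14 gained it and 0 called values changed sign. With glmTreat the called genes numbered 3051 in PKO-1 against TM6, 2448 in PKO-1 against PKO-6, 2575 in PKO-1 against rho0 and 1597 in PKO-6 against rho0, and the iron genes called numbered 3 in PKO-6 against TM6 and 0 in PKO-6 against rho0 (2 at an unadjusted p below 0.05 by glmTreat, 3 called by edgeR's quasi-likelihood test and 3 by DESeq2's Wald test). With both clones pooled, 3607 genes were called in PKO against TM6. Without 1 library in turn, the called genes ranged from 5604 to 6299 in rho0, 4597 to 4888 in PKO-1 and 5657 to 5962 in PKO-6 against TM6, 3820 to 4178 between the clones, 4150 to 4908 in PKO-1 and 2713 to 3399 in PKO-6 against rho0. The iron genes called then ranged, in the same order, from 4 to 4, 3 to 4, 4 to 6, 1 to 1, 3 to 3 and 2 to 4. In PKO-6 against TM6, *Fth1* and *Nfs1* both lost their calls without TM6 replicate 1, PKO-6 replicate 1 or 2, or any rho0 library, and *Iscu* in PKO-6 against rho0 lost its call without rho0 replicate 2 or 3. The calls of *Slc40a1*, *Slc11a2* and *Aco1* against TM6 held in every alternative, except that of *Aco1* in rho0 with glmTreat. The cause of these losses was not tested. With the replicate number as a block, 4, 3, 6, 1, 3 and 3 iron genes were called, as without it. Same-numbered libraries of different lines deviated together only in part (correlation -0.39 to 0.25, above 0.1 in 10 of 18 pairs), and 4 of 12 libraries correlated best with one of their own number. In PKO-6 against TM6 all 3 same-numbered pairs lay above 0.1. With these lines alone and a replicate block, an alternative added after seeing the data, 5966 genes and 4 iron genes were called, *Fth1* and *Nfs1* losing their calls as they did in the same lines without the block. In each of the other comparisons at least 1 same-numbered pair lay below 0.1, which does not exclude a pairing. Pairs of different number ran from -0.42 to 0.49, with 10 of 36 above 0.1. Their median was -0.05, beside 0.12 for same-numbered pairs. Whether the numbers pair the libraries was thus not settled. *Slc40a1* had a mean of 29 deposited counts in TM6, so counting error weighs on its folds.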
